A study of Mus musculus with 16 samples.

Results

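The 10 genes described here belong to the bone morphogenetic protein (BMP) and activin signalling system and were followed in 3T3-L1 cells given the synthetic glucocorticoid dexamethasone (dex). They were the ligand genes Bmp2, Bmp4 and Inhba, the receptor genes Bmpr1a, Acvr1, Acvr1b and Bmpr2, and the antagonist genes Grem1, Fst and Nog. Members were all array probes whose annotation names exactly 1 of these 10 genes and no other, and 19 probes met this, covering all 10 of the 19640 genes named on the array. 3T3-L1 is a mouse preadipocyte line, and the labels give it for every group, name no genetic change in it, and set the groups apart by agent and time. The groups were dex for 36 h, DMSO vehicle for 36 h, dex for 2 h and DMSO vehicle for 2 h, with 4 biological replicates each. The labels give neither the dex dose, nor the state of the cultures, nor how the replicates were separated, so p-values measure the spread between these arrays. Each of the 16 arrays compared 1 sample, labelled with Cy5, with a pool of the samples, labelled with Cy3, and all values below are log2 ratios of sample over pool or differences between such ratios. Base 2 was taken for the deposited log ratios, whose base is not stated, and every fold printed below rests on it. A log2 ratio is relative to the pool, so it gives no absolute level and values of different genes are not compared as levels.

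BMPs and activins are secreted dimers of the transforming growth factor beta superfamily. They bring together type I receptors, such as the products of Bmpr1a, Acvr1 and Acvr1b, with type II receptors such as that of Bmpr2. The receptor complex phosphorylates Smad proteins, which enter the nucleus and regulate genes, the Id genes being classic targets of BMPs. Secreted antagonists bind the ligands before they reach a receptor. In the adipose lineage BMP4 and BMP2 are known for promoting commitment and differentiation of precursor cells, and activin A, in human adipose progenitors, for keeping them proliferating and undifferentiated.

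Differences that passed the test lay in secreted factors and in 2 type I receptors. Fst, the activin antagonist follistatin, was 2.36-fold higher in dex than in DMSO cells at 2 h, while Inhba, which encodes the subunit of activin A, was 1.68-fold lower. Grem1, the BMP antagonist gremlin 1, was 1.71-fold lower at 36 h and 1.79-fold lower at 2 h. Acvr1b, the activin type I receptor ALK4, rose on 3 of its 4 probes at 2 h. Fitted on the 2-h arrays alone, the rises of Fst and Acvr1b did not pass. Bmp2, Bmp4, Bmpr1a, Bmpr2 and Nog had no probe past the threshold at either time.

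A probe passed when the p-value of limma's moderated test, adjusted by the Benjamini-Hochberg method over all 38467 probes, was under 0.05, and a gene when at least 1 of its single-gene probes passed. At 36 h 3 of the 10 genes passed, 1 upward and 2 downward, where 11.7% of all genes did, 6.88% upward and 4.96% downward. At 2 h 4 of 10 passed, 2 upward and 2 downward, where 3.18% of all genes did, 1.97% upward and 1.21% downward. With the 2-h arrays alone 2 of 10 passed, Inhba and Grem1, both downward, where 294 of the 19640 genes did. By probe, 3 of 19 passed at 36 h, where 8.83% of all probes did, and 6 of 19 at 2 h, where 2.22% did. The 4 dex and 4 DMSO arrays did not overlap on 4 of the 19 probes at 36 h, where this held for 26.8% of all probes, and on 6 of 19 at 2 h, where it held for 5.86%. The median difference over the 19 probes was -0.04 at 36 h and -0.02 at 2 h, beside -0.0043 and -0.0097 over all probes. Genes with several probes had more chances to pass. The members were chosen with earlier results of these data known, so these counts are descriptions and not tests. In bulk RNA, fewer cells of a type and less RNA per cell cannot be told apart.

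The arrays themselves differed in noise. The SD of the residuals was 0.124 to 0.236 on the 36-h arrays and 0.194 to 0.502 on the 2-h arrays, and across probes DMSO 2 h replicate 4 correlated on average at -0.104 with the other arrays of its group. Each probe's standard error pools all 16 arrays and is therefore the same at both times. Without DMSO 2 h replicate 4, the same number of members passed at 2 h (4, with 2 upward and 2 downward). Ratios cannot show whether a marker is present, so the cell line's identity could not be checked by level. Of 7 fibroblast and preadipocyte markers measured, 4 fell at 36 h (Pdgfrb, Col1a1, Col1a2 and Dlk1) and 1 at 2 h (Pdgfrb). Of 7 adipocyte markers, Fabp4 alone passed, with a difference of 2.59 ± 0.31 (SE, adjusted p = 5.87e-05) at 36 h and 1.60 ± 0.31 (SE, adjusted p = 0.00835) at 2 h. At 36 h 1 of 6 macrophage markers fell (Lyz2, on 1 of 3 probes), 1 of 6 epithelial markers rose (Krt8), and limma called 0 of 6 endothelial ones, with 0 at an unadjusted p under 0.05. At 2 h limma called 0 of 6 in each of these 3 lists, and 0, 2 and 1 macrophage, epithelial and endothelial markers had an unadjusted p under 0.05. The part of these markers in the differences of the BMP and activin genes was not tested.

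**Figure D1:**
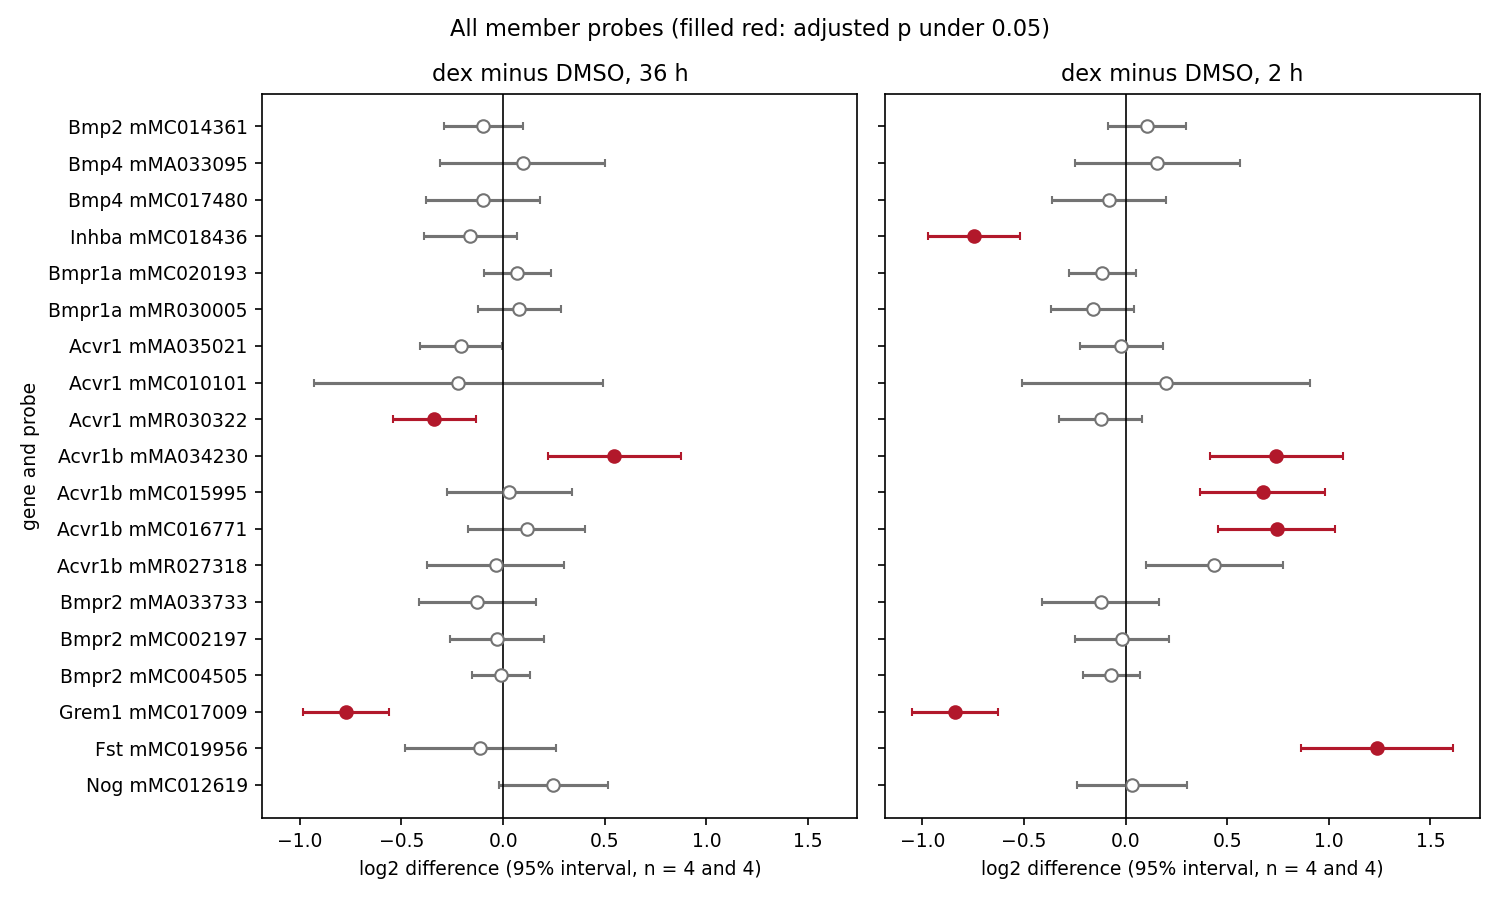
Log2 difference, dex minus DMSO, for each of the 19 probes of the 10 genes at 36 h (left) and 2 h (right); points are limma estimates, bars are 95% confidence intervals, and filled red points have an adjusted p under 0.05. Fst and Inhba lie far from 0 in the 2-h panel alone, at 1.24 and -0.75, while Grem1 lies near -0.8 in both.

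Promoter sequence from RefSeq (GRCm38.p6) was at hand for 7 of the 10 genes, as windows from 250 bases before the start of the gene to 50 after it. Bmp2, Fst and Nog had no window, so no motif was searched for in them. Windows of 3 genes that passed at 2 h are shown, 5′ to 3′ on the gene's strand and in lower case. Inhba lies at chr13:16011601-16011900 on the plus strand, Acvr1b at chr15:101173822-101174121 on the plus strand and Grem1 at chr2:113758599-113758898 on the minus strand. Capitals mark TATAAA in Inhba and GGCGCC in Acvr1b and Grem1.
Inhba: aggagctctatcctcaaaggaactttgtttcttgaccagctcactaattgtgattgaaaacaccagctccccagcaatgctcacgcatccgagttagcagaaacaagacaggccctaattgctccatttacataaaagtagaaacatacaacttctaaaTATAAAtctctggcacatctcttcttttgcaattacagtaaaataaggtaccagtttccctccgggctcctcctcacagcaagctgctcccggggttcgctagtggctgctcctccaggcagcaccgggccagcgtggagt
Acvr1b: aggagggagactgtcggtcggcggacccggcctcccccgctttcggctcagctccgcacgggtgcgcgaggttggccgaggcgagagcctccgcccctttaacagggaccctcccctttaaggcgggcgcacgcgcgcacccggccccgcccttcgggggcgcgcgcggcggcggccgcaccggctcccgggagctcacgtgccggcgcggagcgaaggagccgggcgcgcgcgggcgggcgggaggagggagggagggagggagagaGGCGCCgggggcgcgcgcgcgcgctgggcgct
Grem1: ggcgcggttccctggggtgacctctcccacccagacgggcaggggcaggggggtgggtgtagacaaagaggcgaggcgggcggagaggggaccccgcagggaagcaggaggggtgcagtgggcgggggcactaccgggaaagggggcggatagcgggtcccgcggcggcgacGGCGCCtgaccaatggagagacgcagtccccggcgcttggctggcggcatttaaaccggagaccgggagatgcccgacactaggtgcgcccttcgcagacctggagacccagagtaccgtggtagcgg

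The windows differ in base composition. G and C made up 47.7% of the Inhba window, 79.7% of the Acvr1b window and 70.7% of the Grem1 window. The median was 52.7% over the 32851 mouse windows searched. That set, called all windows below, left out the windows of a single chromosome. Both strands were searched for 6 motifs. TATAAA was found in Inhba, from 91 to 86 bases before the start, and in 13.62% of all windows. GGCGCC, a GC-rich Smad motif, was found in 4 of the 7 windows (Acvr1b, Bmpr1a, Bmpr2 and Grem1) and in 11.87% of all windows. All 4 held more G and C than the median window, with 79.3% in Bmpr1a and 59.3% in Bmpr2. So did the windows of Bmp4 (64%) and Acvr1 (83.7%), which lack GGCGCC. The motif consists of G and C only, and its share among windows of like composition was not counted. In Grem1 GGCGCC lies 78 to 73 bases before the start, and in Acvr1b 19 to 24 bases after it. AGAACA, the half-site of the glucocorticoid receptor, was found in Bmpr2 alone of the 7 and in 18.97% of all windows. Its inverted repeat with a 3-base spacer was in 0 of the 7 and in 0.009132% of all windows. The Smad motifs CAGACA and GTCTAGAC were in 0 of the 7 as well, beside 21.04% and 0.2131% of all windows. Apart from the half-site within its own inverted repeat, no motif searched contains another, and a match is a description of the sequence.

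Among the ligands, Inhba was lower in dex than in DMSO cells at 2 h. At 36 h its single probe read -0.16, -0.35, -7.5e-04 and -0.07 in dex replicates 1 to 4, against 0.12, -0.12, -0.08 and 0.14 in DMSO. These groups overlapped, and the difference of -0.16 ± 0.11 (SE, 95% interval -0.39 to 0.07) did not pass (adjusted p = 0.444). At 2 h the probe read -0.46, -0.62, -0.92 and -0.66 in dex, against -0.02, 0.10, 0.16 and 0.08 in DMSO. All 4 dex arrays lay below all 4 DMSO arrays. The means were -0.66 ± 0.19 in dex and 0.08 ± 0.08 in DMSO (SD, n = 4 each), and Inhba fell by 0.75 (SE 0.11, adjusted p = 6.30e-04). The dex effect at 36 h minus that at 2 h was 0.58 ± 0.15 (SE, 95% interval 0.26 to 0.91) with an adjusted p of 0.0565, just over the threshold, and it passed in 5 of 24 alternative settings. Within dex cells alone Inhba was higher at 36 h than at 2 h, by 0.52 ± 0.11 (SE, adjusted p = 0.0233), with no overlap between the 2 groups of arrays. That call was lost without dex 36 h replicate 1, 3 or 4 or dex 2 h replicate 3 or 4, at adjusted p-values of 0.0609 to 0.0812, and also with the dex arrays alone and with scale normalization.

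Bmp2 and Bmp4, which encode the ligands that signal through the type I receptor of Bmpr1a, did not pass at either time. Bmp2 differed by -0.10 ± 0.09 at 36 h and by 0.10 ± 0.09 at 2 h (SE, adjusted p = 0.65 and 0.735), with 95% intervals of -0.29 to 0.10 and -0.09 to 0.30. Its group means were -0.07 ± 0.07 in dex and 0.02 ± 0.06 in DMSO at 36 h, and 0.10 ± 0.10 in dex and -0.0093 ± 0.18 in DMSO at 2 h (SD, n = 4 each). The ranges overlapped at both times. The 2 Bmp4 probes differed by 0.10 and -0.10 at 36 h and by 0.16 and -0.08 at 2 h. Over the 16 arrays these 2 probes had a correlation of -0.291, so they did not track each other. The probe mMA033095 had the wider 95% intervals, from -0.31 to 0.50 at 36 h and from -0.25 to 0.56 at 2 h. Differences of either sign within these intervals are compatible with the values.

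Of the receptors, Acvr1b had the clearest difference, with 3 probes that passed at 2 h and 1 at 36 h. At 36 h the probes disagreed. The probe mMA034230 read 0.18, 0.45, 0.26 and 0.12 in dex, against -0.31, -0.35, -0.26 and -0.25 in DMSO. Its groups did not overlap, and it rose by 0.55 ± 0.15 (SE, adjusted p = 0.0377). The other 3 probes differed by 0.03, 0.12 and -0.04, with adjusted p-values of 0.745 to 0.977 and overlapping groups. The call on mMA034230 was lost in turn without each of 8 arrays, at adjusted p-values of 0.0504 to 0.107. These were dex 36 h replicates 1 to 3, DMSO 36 h replicates 1 to 4 and dex 2 h replicate 3. The call also did not hold by the design text's log-odds rule. On the 36-h arrays alone mMA034230 passed (adjusted p = 0.00184), and the other 3 probes did not.

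At 2 h 3 of the 4 Acvr1b probes passed. The probe mMC016771 read 0.39, 0.34, 0.37 and 0.30 in dex 2 h, against 0.0010, -0.24, -0.59 and -0.75 in DMSO 2 h. The probe mMC015995 read 0.55, 0.82, 0.56 and 0.48 in dex, against 0.14, 0.09, -0.22 and -0.31 in DMSO. The probe mMA034230 read 0.67, 0.56, 0.40 and 0.36 in dex, against 0.21, -0.09, -0.36 and -0.74 in DMSO. On each of these 3 probes every dex array lay above every DMSO array. The differences were 0.74 ± 0.14, 0.67 ± 0.14 and 0.74 ± 0.15 (SE), with adjusted p-values of 0.00495, 0.0173 and 0.0137. The remaining probe, mMR027318, read 0.48, 0.53, 0.38 and 0.29 in dex, against 0.32, 0.33, -0.19 and -0.53 in DMSO. Here the groups overlapped, and the difference of 0.44 ± 0.16 (SE, adjusted p = 0.273) did not pass. DMSO replicates 3 and 4 were the lowest 2 of the 8 arrays on all 4 probes, and the probes correlated with each other at 0.748 to 0.886 over the 16 arrays.

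Averaged over its 4 probes, Acvr1b differed by 0.17 ± 0.13 at 36 h (SE, adjusted p = 0.567) and by 0.65 ± 0.13 at 2 h (SE, adjusted p = 0.0105). Fitted on the 2-h arrays alone, no Acvr1b probe passed, with adjusted p-values of 0.0765 to 0.876. Leaving out dex 2 h replicate 1 took mMA034230 to 0.0541, and leaving out dex 2 h replicate 2 or DMSO 2 h replicate 3 took mMC015995 to 0.0634 or 0.0611. Without DMSO 2 h replicate 4 the 3 probes still passed, at differences of 0.63, 0.60 and 0.58. The dex effect at 36 h minus that at 2 h was -0.19 to -0.64 over the 4 probes and passed on none (adjusted p = 0.121 to 0.743). Within dex cells the probe mMC015995 was lower at 36 h than at 2 h by a difference of -0.60 ± 0.14 (SE, adjusted p = 0.0486), a call that ended when any of 12 arrays was left out.

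**Figure D2:**
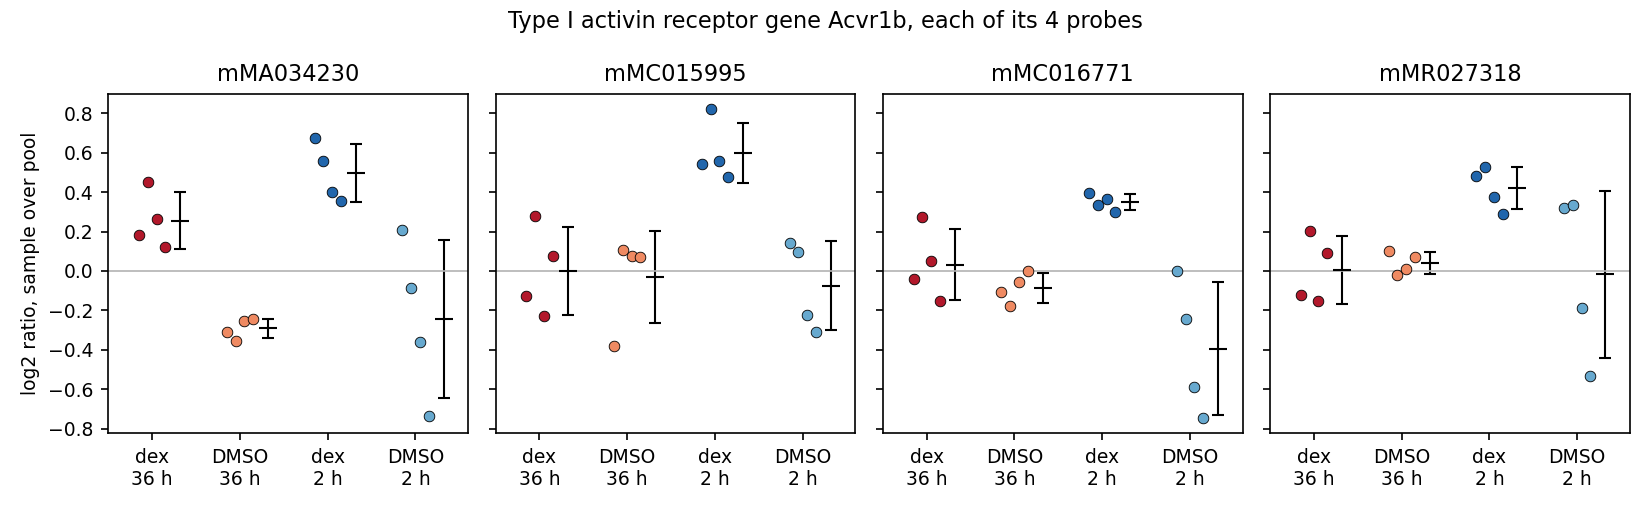
Log2 ratio of sample over pool for the 4 Acvr1b probes, 1 point per array, in dex 36 h, DMSO 36 h, dex 2 h and DMSO 2 h; bars are the mean and the SD of 4 arrays. All 4 probes place the dex 2 h arrays above 0, from 0.29 to 0.82, and only mMA034230 separates dex from DMSO at 36 h.

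Acvr1, the BMP type I receptor ALK2, passed at 36 h on 1 of its 3 probes. The probe mMR030322 read -0.23, -0.49, -0.12 and -0.24 in dex 36 h, against 0.08, 0.12, 0.08 and 0.0087 in DMSO 36 h. All dex arrays lay below all DMSO arrays, and the probe fell by 0.34 (SE 0.10, adjusted p = 0.0391). The other probes differed by -0.21 ± 0.10 and -0.22 ± 0.33 (SE, adjusted p = 0.222 and 0.844), with overlapping groups. The call on mMR030322 was lost in turn without each of 8 arrays, at adjusted p-values of 0.052 to 0.115. These were dex 36 h replicates 1, 2 and 4, DMSO 36 h replicates 1 to 4 and DMSO 2 h replicate 3, and the call did not hold by the log-odds rule either. On the 36-h arrays alone mMR030322 passed (adjusted p = 0.02), and the other probes did not. The average of the 3 probes differed by -0.26 ± 0.12 (SE, adjusted p = 0.223). At 2 h the 3 probes differed by -0.12, -0.02 and 0.20 and none passed. The probes did not track each other, with correlations of -0.293 to 0.273, and mMC010101 ranged from -1.10 to 1.12 within DMSO 2 h.

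Bmpr1a and Bmpr2 encode the BMP type I receptor ALK3 and the BMP type II receptor. The 2 Bmpr1a probes differed by 0.07 and 0.08 at 36 h (adjusted p = 0.725 and 0.761) and by -0.12 and -0.16 at 2 h (adjusted p = 0.643 and 0.594). The 3 Bmpr2 probes differed by -0.13, -0.03 and -0.0099 at 36 h and by -0.12, -0.02 and -0.07 at 2 h, with adjusted p-values of 0.709 to 0.989. No probe of either gene passed, and the groups overlapped on all 5. Over the 16 arrays the 2 Bmpr1a probes correlated at 0.442. The 3 Bmpr2 probes correlated at -0.329 to 0.484, so they did not all track each other. The tightest 95% intervals were those of the Bmpr2 probe mMC004505, from -0.15 to 0.13 at 36 h. The widest were those of the Bmpr2 probe mMA033733, from -0.42 to 0.16 at 36 h, and each probe's interval was as wide at 2 h.

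Among the antagonists, Grem1 was lower in dex than in DMSO cells at both times. At 36 h its probe read -0.36, -0.16, -0.48 and 0.06 in dex, against 0.62, 0.56, 0.45 and 0.53 in DMSO. At 2 h it read -0.55, -0.61, -0.57 and -0.64 in dex, against 0.20, 0.26, 0.17 and 0.36 in DMSO. The groups did not overlap at either time, and the dex 2 h arrays lay within 0.1 of each other. Grem1 fell by 0.77 at 36 h (SE 0.10, adjusted p = 1.18e-04) and by 0.84 at 2 h (SE 0.10, adjusted p = 1.01e-04). It passed in 25 of 25 alternative settings at each time, at adjusted p-values of up to 0.00218 at 36 h and 0.00294 at 2 h. The effect at 36 h minus that at 2 h was 0.07 ± 0.14 (SE, 95% interval -0.23 to 0.37, adjusted p = 0.873). In DMSO cells all 36-h arrays lay above all 2-h arrays, by 0.29 ± 0.10 (SE), which did not pass (adjusted p = 0.243). The same order held in dex cells, by 0.36 ± 0.10 (SE, adjusted p = 0.0933).

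Fst was the member with the largest difference. At 36 h its probe read 0.08, -0.07, 0.19 and 0.06 in dex, against 0.19, 0.23, 0.15 and 0.13 in DMSO. The groups overlapped, with a difference of -0.11 ± 0.18 (SE, 95% interval -0.48 to 0.26, adjusted p = 0.854). At 2 h it read 0.99, 0.93, 0.86 and 0.95 in dex, against 0.46, -0.57, -0.56 and -0.54 in DMSO. All dex arrays lay above all DMSO arrays, although DMSO replicate 1 stood about 1 log2 unit above the other DMSO arrays. The rise was 1.24 ± 0.18 (SE, adjusted p = 5.84e-04), and without DMSO 2 h replicate 1 it was 1.49 (adjusted p = 4.70e-08). Fitted on the 2-h arrays alone it was just over the threshold (adjusted p = 0.0509), and it passed in the other 24 of 25 alternatives. The effect at 36 h minus that at 2 h was -1.35 ± 0.25 (SE, 95% interval -1.88 to -0.82, adjusted p = 0.0072), and it passed in 24 of 24 alternatives. Changes over time in both agents enter this value. In DMSO cells Fst was higher at 36 h than at 2 h by 0.48 ± 0.18 (SE, adjusted p = 0.281), which did not pass. Without DMSO 2 h replicate 1 that rise was 0.73 and passed (adjusted p = 1.28e-04). This array was singled out by its own Fst value, so the Fst fits without it are descriptions and not tests.

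Nog, the BMP antagonist noggin, did not pass at either time. At 36 h it read 0.10, 0.02, 0.24 and -0.01 in dex, against -0.15, -0.17, -0.16 and -0.16 in DMSO. The groups did not overlap, but the difference of 0.25 ± 0.13 (SE, 95% interval -0.02 to 0.51) had an adjusted p of 0.282 with the spread of all 16 arrays. With the 36-h arrays alone, whose spread was smaller, it passed (adjusted p = 0.0261). At 2 h it differed by 0.03 ± 0.13 (SE, adjusted p = 0.96), and DMSO replicate 4, at -0.53, lay well below the other DMSO arrays, at 0.02 to 0.15.

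**Figure D3:**
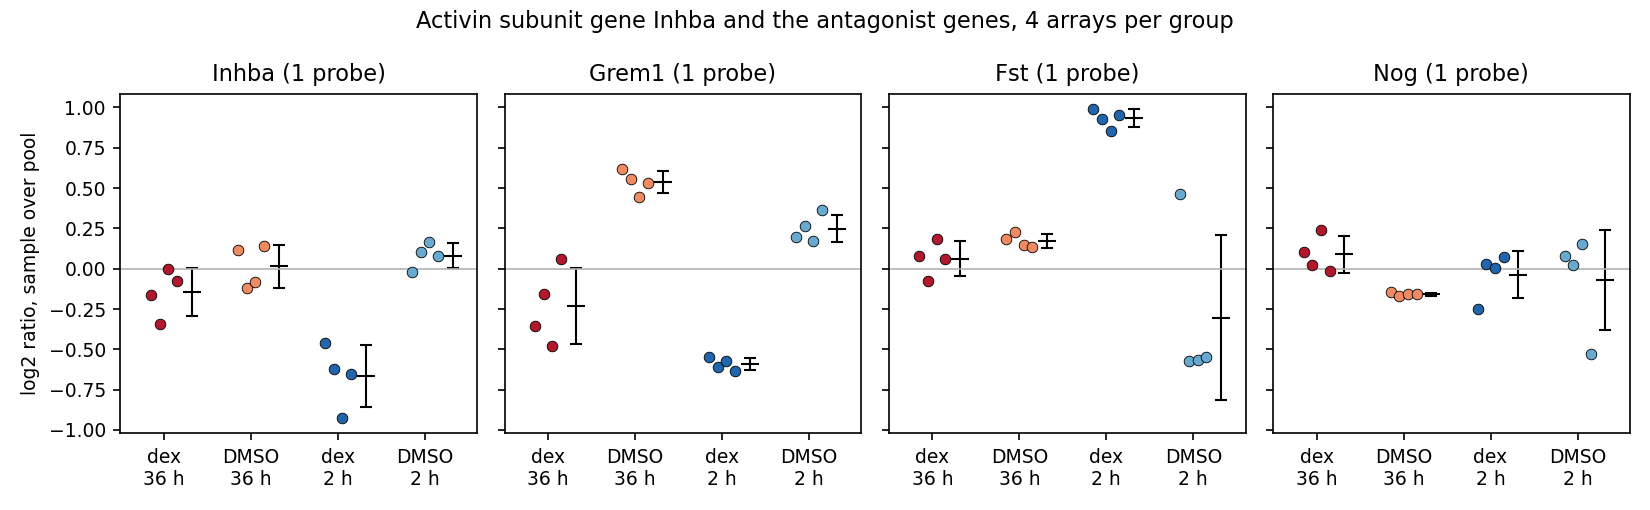
Log2 ratio of sample over pool for Inhba, Grem1, Fst and Nog, 1 point per array, in dex 36 h, DMSO 36 h, dex 2 h and DMSO 2 h; bars are the mean and the SD of 4 arrays. Grem1 is lower in dex at both times, Inhba is low and Fst high in dex 2 h, and Fst in DMSO 2 h has 1 array at 0.46 and 3 near -0.56.

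Whether the members' dex effects differed between the times was tested for all 19 probes. Of the 10 genes, only Fst passed in that comparison, where 3.48% of all genes did. Time itself was compared within each agent, and these comparisons share arrays with the dex effects. In DMSO cells at 36 h against 2 h limma called 0 of the 10 genes, with 3 at an unadjusted p under 0.05, where 1.26% of all genes were called. In dex cells 3 of 10 were called, Inhba upward and Fst and Acvr1b downward, where 2.43% of all genes were. Fst in dex cells differed between 36 h and 2 h by -0.87 ± 0.18 (SE, adjusted p = 0.021), with no overlap. Without dex 36 h replicate 1 or dex 2 h replicate 1, 3 or 4 that call was lost, at adjusted p-values of 0.0537 to 0.0664.

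For each member that passed, the 3 genes with the most similar profile were taken by Pearson correlation over the 16 arrays, which share the pool, the groups and the array noise. Fst was nearest to Rgmb (r = 0.956), a BMP co-receptor gene, then to Abhd2 (0.927) and Pias1 (0.924). Grem1 was nearest to Tnrc18 (0.947), Fam217b (0.938) and the hyaluronan synthase gene Has2 (0.937), which differed by -1.03 at 36 h and -1.66 at 2 h. Inhba was nearest to the collagen receptor gene Ddr1 (0.938), Fhdc1 (0.937) and the interferon regulatory factor gene Irf1 (0.936). Acvr1b, on mMA034230, was nearest to Scaf8 (0.961), Plekhf2 (0.960) and the circadian clock gene Per2 (0.942). Acvr1, on mMR030322, was nearest to the forkhead gene Foxd1 (0.923), Zfp710 (0.915) and Siah2 (0.911).

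The other genes of the pathway were held in 5 lists, and 75 of their 80 genes were measured. The lists were chosen with earlier results of these data known, so the shares below are descriptions and not tests. At 36 h 20 of the 75 passed, 7 upward and 13 downward, which is 26.7% beside the 11.7% of all genes. At 2 h 9 passed, 4 upward and 5 downward, which is 12% beside the 3.18% of all genes, and with the 2-h arrays alone 2 passed. The median of the gene means was -0.0024 at 36 h and 0.0128 at 2 h, beside -0.0012 and -0.0089 over all genes. For genes with several probes, the values below are those of the called probe with the largest difference.

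Of 23 other ligands and ligand-processing genes, 1 fell at 36 h and 1 rose at 2 h. Bmp1, which despite its name encodes a procollagen and chordin protease, fell by 0.48 at 36 h (SE 0.14, adjusted p = 0.0393), on 2 of 5 probes, and the call on this probe was lost without any one of 9 arrays. Gdf2, the ligand BMP9, differed by 0.70 ± 0.15 at 2 h (SE, adjusted p = 0.0149), with an adjusted p of 0.257 on the 2-h arrays alone and 0.0589 without dex 2 h replicate 1. Its means were 0.10 ± 0.20 in dex 2 h and -0.61 ± 0.37 in DMSO 2 h (SD, n = 4 each).

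Of 11 other receptors and co-receptors, 2 rose and 1 fell at each time. Acvrl1, the type I receptor ALK1, had means of 0.52 ± 0.22 in dex 36 h and -0.53 ± 0.23 in DMSO 36 h, and of 0.98 ± 0.26 in dex 2 h and -0.86 ± 0.32 in DMSO 2 h (SD, n = 4 each). It rose by 1.04 ± 0.17 at 36 h (SE, adjusted p = 0.00106) and by 1.84 ± 0.17 at 2 h (SE, adjusted p = 1.07e-05), and passed in 25 of 25 alternatives at each time. Tgfbr3, the co-receptor betaglycan, which also binds inhibin, rose at 36 h on both its probes, by up to 0.80 ± 0.12 (SE, adjusted p = 5.98e-04). The BMP co-receptor genes Rgmb and Rgma moved in opposite directions at 2 h. Rgmb rose on both probes, by up to 0.65 ± 0.12 (SE, adjusted p = 0.00669), and Rgma fell by 0.86 (SE 0.14, adjusted p = 0.0028). On the 2-h arrays alone neither call held, at adjusted p-values of 0.179 for this Rgmb probe and 0.0574 for Rgma.

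Of 16 other antagonists and extracellular regulators, 1 rose and 3 fell at 36 h, while limma called 0 at 2 h, with 2 at an unadjusted p under 0.05. Chrdl1, a chordin-like BMP antagonist, fell on both probes, by up to 0.75 (SE 0.19, adjusted p = 0.0203), with dex 36 h replicates 1 and 3 at -0.95 and -1.03 and replicates 2 and 4 at -0.17 and -0.19. Twsg1, a BMP and chordin binding protein, fell by 0.37 (SE 0.08, adjusted p = 0.00712), and Cer1, an antagonist of nodal and BMPs, by 0.35 (SE 0.09, adjusted p = 0.0201). Nbl1, a BMP antagonist of the same family as gremlin, rose by 0.39 ± 0.10 (SE, adjusted p = 0.0288). Calls on these probes of Chrdl1, Cer1 and Nbl1 were lost without any one of 5, 5 and 6 arrays, at adjusted p-values of 0.0504 to 0.0982.

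Of 15 Smad and intracellular regulator genes, 1 rose and 6 fell at 36 h, and 1 rose and 3 fell at 2 h. Smad6 and Smad7 encode the inhibitory Smads. Smad6 fell by 0.64 at 36 h (SE 0.10, adjusted p = 4.20e-04) and by 0.52 at 2 h (SE 0.10, adjusted p = 0.00507). Smad7 fell by 0.83 at 36 h (SE 0.16, adjusted p = 0.00288). Smad3, which carries activin signals, fell by 0.53 at 36 h (SE 0.13, adjusted p = 0.0189) and by 0.81 at 2 h (SE 0.13, adjusted p = 0.00186). Its call at 36 h was lost without DMSO 36 h replicate 1 or 2, at adjusted p-values of 0.0628 and 0.0708. On the 2-h arrays alone the 2-h calls on Smad6 and Smad3 were lost, at adjusted p-values of 0.0793 and 0.0627. Smurf2, a ubiquitin ligase for Smads and their receptors, rose by 0.66 ± 0.09 at 36 h (SE, adjusted p = 2.92e-04).

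Of 10 target genes of BMPs, 3 rose and 2 fell at 36 h, and 1 fell at 2 h. The Id genes, which encode inhibitors of basic helix-loop-helix factors, did not move together. At 36 h Id1, Id3 and Id4 rose and Id2 fell, and the values of Id3 are given with the other observations. Id2 had means of -1.05 ± 0.40 in dex 36 h and 0.44 ± 0.03 in DMSO 36 h (SD, n = 4 each) and fell by 1.50 (SE 0.14, adjusted p = 4.08e-06). At 2 h it fell by 0.61 (SE 0.14, adjusted p = 0.0297), a call lost without any one of the 8 arrays taken at 2 h. On the 2-h arrays alone Id2 passed (adjusted p = 0.00891). At 36 h Id4 was higher in dex than in DMSO cells by 0.99 ± 0.12 (SE, adjusted p = 4.81e-05), and Id1, on 1 of 2 probes, by 0.40 ± 0.10 (SE, adjusted p = 0.0199). The call on Id1 was lost without DMSO 36 h replicate 3 or 4, at adjusted p-values of 0.0512 and 0.0620. From 2 h to 36 h in DMSO cells Id4 fell by 0.54 (SE 0.12, adjusted p = 0.0427) and Id1, on this probe, by 0.45 (SE 0.10, adjusted p = 0.0483). In dex cells Id4 rose by 0.73 ± 0.12 (SE, adjusted p = 0.00451). Id1 there differed by -0.17 ± 0.10 (SE, adjusted p = 0.505). Atoh8, a helix-loop-helix factor, fell by 0.74 at 36 h (SE 0.13, adjusted p = 0.00236).

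**Figure D4:**
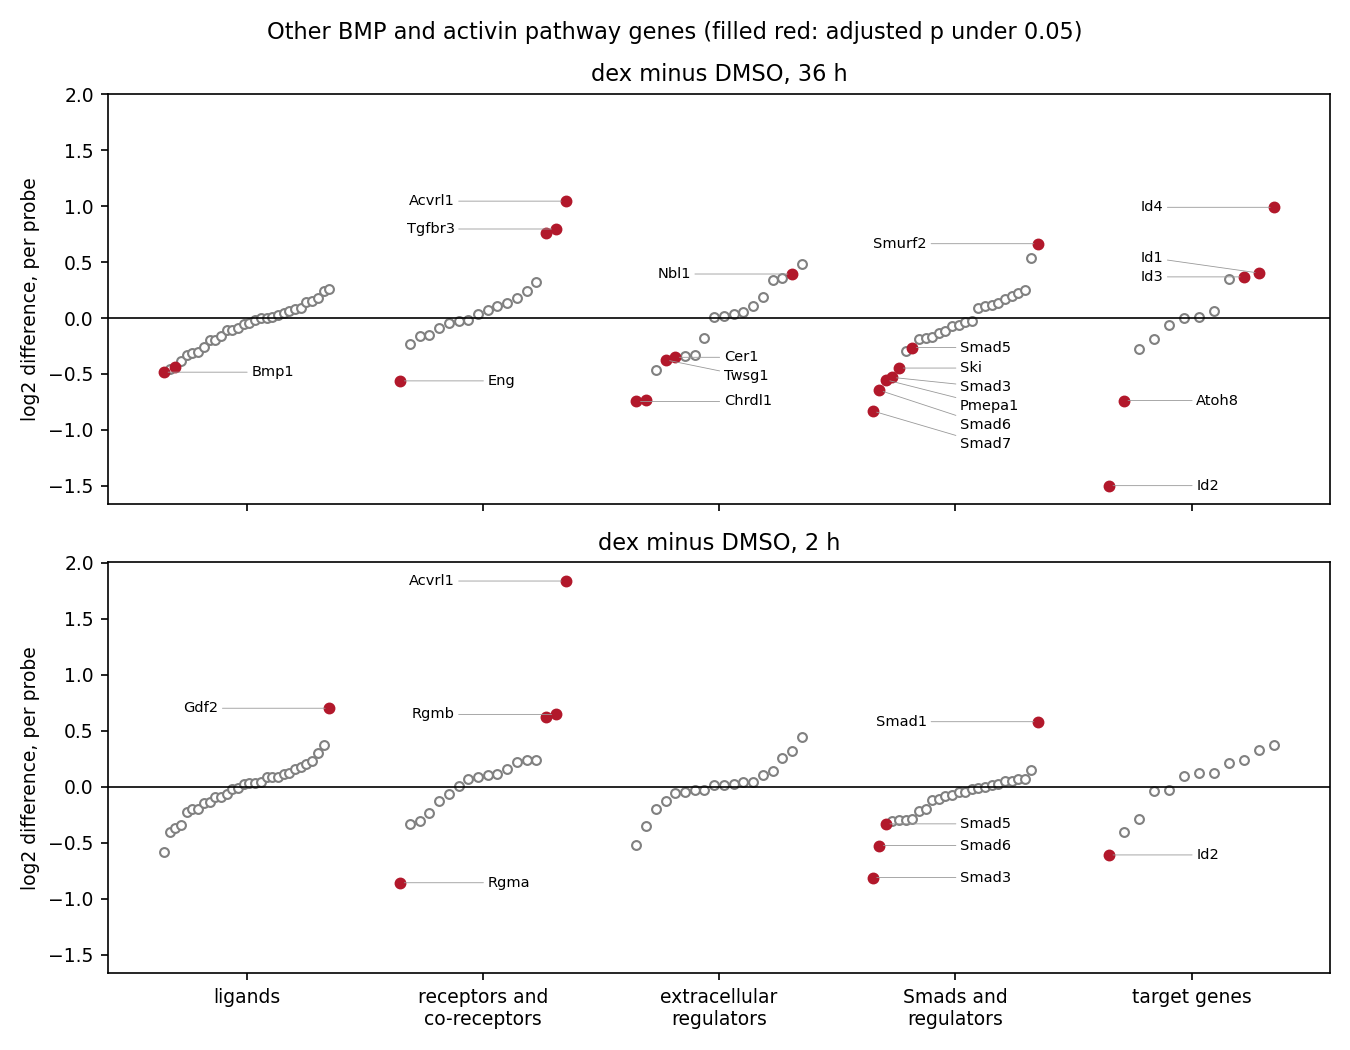
Log2 difference, dex minus DMSO, at 36 h (upper panel) and 2 h (lower panel) for each probe of the other pathway genes, in 5 groups by role and ordered by size within a group; filled red points have an adjusted p under 0.05. Red points below 0 are most numerous among the Smads and their regulators, where 6 genes fell at 36 h and 3 at 2 h, and Acvrl1 is the highest point at both times, at 1.04 and 1.84.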

How the data were processed

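RNA of 16 samples of 3T3-L1 cells was measured on 2-colour arrays. The deposited values are log ratios, used here as log2, of sample (Cy5) over pool (Cy3), per the labels' dyes. The authors fitted limma models, per the design text and the submitters' processing notes. Neither the labels nor the design text states the background correction, the normalization within arrays, the log base or the probes' genome build. Base 2 was taken: for the 39 most variable probes the median mean ratio of sample over pool was 1.00 with base 2, 2.98 with base 10 and 1.13 with the natural log, so the natural log is not settled by this check. No scanner intensities were used, so signal over background is unknown, and the number of arrays limits the precision.

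No further normalization or filter was applied. Array medians ran from -0.0106 to 0.0083, and 131 values were missing on 3 arrays (the fit used the arrays that had a value). Of 38467 probes, 29456 named 1 gene, 760 several and 8251 none. limma 3.58.1 in R 4.3.3 fitted 4 group means per probe (lmFit and eBayes, no covariates, 12 residual and 3.19 prior degrees of freedom). On simulated data with known changes the median estimate was near the planted change. The simulated noise was independent between probes, so that run does not test the calls made on these arrays. P-values were adjusted by Benjamini-Hochberg over all probes of each contrast. Confidence intervals are 95%.

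All members are described. Of each other pathway list, up to 4 called genes with the largest difference of a called probe are named, and for each called member the 3 genes with the highest correlation to its probe with the smallest p of limma's F test over both dex contrasts. The members and lists were chosen with earlier results of these data known. Replicate numbers were checked for pairing: deviations of same-numbered dex and DMSO arrays from their group means correlated at -0.0753 to 0.344 at 36 h and at -0.103 to 0.255 at 2 h, so the numbers were not taken to pair arrays. Alternatives were the arrays of a contrast alone, array weights, a robust variance prior, quantile and scale normalization, and leaving out each array. Others were a replicate block, probes without missing values, single-gene probes only, probes averaged per gene, and the design text's log-odds rule. The 25 alternatives counted for a probe leave out the average per gene, and the 24 for the difference between times also leave out the arrays alone. The robust prior and the probes without missing values called 3376 and 3392 probes at 36 h, where the main fit called 3396.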

Additional observations from a re-analysis of the deposited data

Results flagged for a closer look

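The members' values were searched for single arrays far from the other 3 of their group, with Dixon's criterion at its 95% level, in 76 groups of 4 arrays. It marked 5, where chance marks about 1 in 20. For Fst in DMSO 2 h, replicate 1 read 0.465 and the others -0.572 to -0.545. For Bmp4 on probe mMA033095, replicate 2 read -0.698 in dex 2 h, against 0.0254 to 0.131 in the other 3 arrays, and -0.133 in DMSO 36 h, against -0.0436 to -0.0377. For Acvr1b on probe mMC015995 in DMSO 36 h, replicate 1 read -0.380 and the others 0.0721 to 0.106. For Bmpr2 on probe mMC002197 in dex 36 h, replicate 3 read -0.365 and the others -0.0812 to -0.0388.

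The dex effect on Fst differed between the time points by a test of the difference itself, at -1.35 (36 h minus 2 h, SE 0.25, adjusted p = 0.0072). It was -1.60 (adjusted p = 1.12e-06) without DMSO 2 h replicate 1, the array that stood apart for Fst, and -1.27 (adjusted p = 0.0119) without DMSO 2 h replicate 4, the array that correlated negatively with its group. Replicate 1 was singled out by its own Fst value, so the fit without it is a description and not a test.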

How the results depend on the processing

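No called difference of a member, or of a pathway gene named in the accounts by role, changed sign under the alternatives run. These did not cover the pathway genes given with the other observations, Id3 among them, nor the changes of pathway genes over time. At 36 h, 3 members passed, against 8 with array weights, 1 with probes averaged per gene and 1 by the log-odds rule. Leaving out 1 array gave 1 to 3, with 1 left without dex 36 h replicate 1 or 2 or any single DMSO 36 h array. At 2 h, 4 passed, 6 with array weights, 2 with the 2-h arrays alone and 4 without each array in turn. For the difference between the times 1 passed, 7 with array weights, 2 with single-gene probes only, 2 with probes averaged, and 1 to 3 without 1 array, with 3 without DMSO 2 h replicate 1 and 2 without dex 36 h replicate 2 or dex 2 h replicate 1. For DMSO over time 0 passed, 6 with array weights, 1 with quantile, 1 with scale normalization, and 0 to 1 without 1 array, with 1 without DMSO 2 h replicate 1 or 4. For dex over time 3 passed, 9 with array weights, 1 with the dex arrays alone, and 0 to 3 without 1 array, with 0 without dex 36 h replicate 1 or dex 2 h replicate 3 or 4 and 1 without dex 36 h replicate 4 or dex 2 h replicate 1. Of the other pathway genes 20 passed at 36 h, 31 with the 36-h arrays alone, 51 with array weights, 10 by the log-odds rule and 13 to 22 without 1 array, with 13 without DMSO 36 h replicate 1. At 2 h 9 passed, 2 with the 2-h arrays alone, 18 with array weights and 7 to 9 without 1 array. Array weights ran from 0.11 to 18.6 and gave 12731 called genes of the whole array at 36 h and 2910 at 2 h, where the unweighted fit gave 2300 and 625. The 36-h count was 4555 with the 36-h arrays alone, 4349 with quantile, 4160 with scale normalization and 1028 by the log-odds rule, and the 2-h count 294 with the 2-h arrays alone. The cause of these shifts was not tested.

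Replicate numbers are shared by all groups, and a fit with the number as a replicate block passed 2 members at 36 h, 4 at 2 h, 1 for the difference, 0 for DMSO over time, 3 for dex over time, and 19 and 8 other pathway genes at 36 h and 2 h. The member lost at 36 h was Acvr1. Of the 4 numbers, 2 at 36 h and 1 at 2 h had their highest correlation with their own number, and 3 between dex 36 h and dex 2 h and 0 between DMSO 36 h and DMSO 2 h. No pair of groups had every correlation over 0.1, so the samples were taken to share only a number.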

Other observations

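The further pathway genes below were chosen after their values were seen. Of the Smads that carry BMP signals, Smad5 fell by 0.26 at 36 h (SE 0.08, adjusted p = 0.0421) and by 0.33 at 2 h (SE 0.08, adjusted p = 0.0293). Smad1 rose at 2 h on 1 of 3 probes, by 0.58 ± 0.10 (SE, adjusted p = 0.00229), while its other probes differed by -0.0068 and 0.02. Smad9 differed by -0.03 and -0.08 at 36 h and 2 h and passed at neither (adjusted p = 0.958 and 0.837). Id3, a BMP target, rose by 0.37 ± 0.08 at 36 h (SE, adjusted p = 0.00838). Eng, the co-receptor endoglin, Ski, a repressor of Smads, and Pmepa1, which binds Smads, each fell at 36 h on 1 of 2 probes, by 0.56, 0.45 and 0.55 (adjusted p = 0.0361, 0.0112 and 0.0192). The other probes of these 3 genes differed by 0.13, -0.19 and -0.12 and did not pass.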
